A study of Mus musculus with 21 samples.

Results

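Slow-twitch fibre genes were read from RNA sequencing counts of mouse brown fat and thigh muscle. Apart from Mb, which encodes the oxygen carrier myoglobin, they were slow-fibre forms of contractile, Z-disc and calcium-handling proteins other than myosin heavy chain. The 10 genes were Myl2, Myl3, Tnnt1, Tnni1, Tnnc1, Atp2a2, Casq2, Myoz2, Mb and Tpm3. They were found by gene symbol among the 28541 gene models of each count table, where a symbol with several models would be read from the model with the highest summed count. Each of the 10 symbols had exactly 1 model in both tables. The data were 21 libraries of whole tissue, 11 of brown adipose tissue (BAT) and 10 of white vastus lateralis (WV), a mostly fast muscle of the thigh. BATI4KO mice were set against floxed mice in each tissue. There were 5 floxed and 6 BATI4KO libraries of BAT and 5 of each genotype of WV. From what is known of the study, the BATI4KO mouse lacks the transcription factor Irf4 in its brown adipocytes, and the floxed animals carry the loxP-flanked alleles without recombination. The sources used here do not give the driver of the deletion or the age, sex and housing of the animals. Libraries are named by their titles, FX for floxed and KO for BATI4KO, followed by a number. FX_5497, FX_5503, KO_5492 and KO_5494 are titles that occur in both tissues, 4 tags in all. The labels do not say whether a number stands for an animal, so the p-values reflect variation among libraries, which may be technical.

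Skeletal muscle fibres are built either as slow or as fast fibres, and most sarcomere proteins exist in a slow and a fast form encoded by separate genes. Slow fibres contract for long periods on oxidative metabolism and share many of their proteins with heart muscle. In mouse limb muscle they are common in the soleus and scarce in the white parts of the large thigh muscles, and the brown fat of the back lies next to muscle. Some of the 10 genes are also used outside muscle: Atp2a2 gives a calcium pump form found in nearly all cells, and Tpm3 gives cytoskeletal tropomyosins.

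Total counts were 20219479 to 41773148 in BAT and 30479508 to 40328627 in WV. Irf4 was at 6.57 to 8.10 CPM (counts scaled to a common library size by TMM) in BATI4KO BAT and at 23.9 to 59.8 CPM in floxed BAT, a log2 difference of -2.45 (SE 0.24; edgeR adjusted p = 0.0026), and at 2.21 to 4.95 CPM over all WV libraries. The labelled tissues carried their markers. The summed level of 6 brown adipocyte markers was 4513 to 12418 CPM in BAT and 19.7 to 94.4 CPM in WV, and that of 12 general muscle genes was 133542 to 329339 CPM in WV. In BAT the same 12 muscle genes summed to 212 to 1256 CPM in floxed and to 751 to 20425 CPM in BATI4KO libraries. Rmrp, a short noncoding RNA, was at 299 to 1330 CPM in the 6 BAT libraries whose titles carry a short number and at 11.7 to 32.3 CPM in the 5 with a long tag. In WV it was at 107 to 134 CPM in FX_5497, FX_5503 and FX_5514 and at 11.8 to 22.4 CPM in the other libraries.

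Promoter sequence is shown for the 5 genes whose levels moved together most closely over libraries: the light chains Myl2 and Myl3 and the troponin subunits Tnnt1, Tnni1 and Tnnc1. RefSeq windows of assembly GRCm38.p6, from 250 bases before to 50 bases after a start, were matched by symbol for 9 of the 10 genes, with 14 starts, and the window of the first listed start is printed 5′ to 3′ on the gene's strand. They lie at chr5:122092474-122092773 (plus strand, Myl2), chr9:110763428-110763727 (plus, Myl3), chr7:4515926-4516225 (minus, Tnnt1), chr1:135799171-135799470 (plus, Tnni1) and chr14:31208062-31208361 (plus, Tnnc1). Capitals mark each E-box, the letters CANNTG bound by myogenic factors such as MyoD, and each TATAAA on the gene's strand.
Myl2: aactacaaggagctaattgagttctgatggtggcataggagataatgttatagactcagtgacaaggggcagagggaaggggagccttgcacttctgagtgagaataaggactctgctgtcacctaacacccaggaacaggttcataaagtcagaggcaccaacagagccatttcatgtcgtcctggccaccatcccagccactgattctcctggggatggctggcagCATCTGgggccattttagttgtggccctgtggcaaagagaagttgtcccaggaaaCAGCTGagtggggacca
Myl3: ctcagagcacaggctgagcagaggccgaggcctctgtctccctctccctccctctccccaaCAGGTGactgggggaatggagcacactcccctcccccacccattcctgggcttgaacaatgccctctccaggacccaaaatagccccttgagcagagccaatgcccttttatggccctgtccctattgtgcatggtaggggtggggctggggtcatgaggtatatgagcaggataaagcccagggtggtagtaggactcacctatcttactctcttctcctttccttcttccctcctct
Tnnt1: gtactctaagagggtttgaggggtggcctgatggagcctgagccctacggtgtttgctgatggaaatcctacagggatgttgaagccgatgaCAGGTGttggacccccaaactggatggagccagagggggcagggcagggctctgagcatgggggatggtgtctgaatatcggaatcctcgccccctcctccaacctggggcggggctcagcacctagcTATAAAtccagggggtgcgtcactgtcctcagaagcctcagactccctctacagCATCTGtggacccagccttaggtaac
Tnni1: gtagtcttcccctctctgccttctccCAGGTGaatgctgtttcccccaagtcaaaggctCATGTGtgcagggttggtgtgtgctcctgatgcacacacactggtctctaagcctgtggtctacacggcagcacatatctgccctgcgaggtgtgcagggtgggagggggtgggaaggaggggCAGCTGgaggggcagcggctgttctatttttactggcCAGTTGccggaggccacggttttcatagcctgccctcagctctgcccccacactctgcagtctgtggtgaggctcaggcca
Tnnc1: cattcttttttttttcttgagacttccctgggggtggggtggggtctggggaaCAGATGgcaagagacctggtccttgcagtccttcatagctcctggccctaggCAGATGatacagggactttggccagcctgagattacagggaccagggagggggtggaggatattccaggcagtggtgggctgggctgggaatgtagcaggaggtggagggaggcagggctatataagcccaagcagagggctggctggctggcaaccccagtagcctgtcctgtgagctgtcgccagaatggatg
The letters CANNTG, searched on both strands, were in all 14 windows of the 9 genes and in 72.3% of all 32851 promoter windows of the same length. TATAAA was in the Tnnt1 window alone among the 14, against 8.32% of all windows. The letters CATTCC, which TEAD factors bind, were in the Myl3 and Tnnc1 windows on one strand or the other, against 14.7% of all windows. The letters GGAAA, the core read by NFAT factors, were in 9 of the 14 windows, against 61.3% of all. A match to the MEF2 motif was present in the windows of Casq2 and Myoz2, against 3.19% of all windows, and in none of the 5 printed.

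In white vastus, the slow light chains and troponins were low in most libraries and high in a few, and the high ones were not of 1 genotype. Myl3, the slow essential light chain, was at 40.5, 3.69, 54.3, 0.522 and 119 CPM in floxed FX_5413, FX_5415, FX_5497, FX_5503 and FX_5514, and at 286, 7.25, 3.34, 266 and 1.82 CPM in BATI4KO KO_5492 to KO_5496. KO_5492 and KO_5495 stood above every floxed library, while the other 3 BATI4KO libraries lay within the floxed range. For none of the 10 members did the genotypes separate in WV, where all BATI4KO libraries were above all floxed ones for 0.454% of tested genes and below them for 0.785%. Myl2, the slow regulatory light chain, was at 1.53, 1.25, 11.4, 0.215 and 29.7 CPM in the floxed libraries in the same order and at 85.8, 2.25, 0.803, 78.5 and 0.754 CPM in the BATI4KO libraries. The same pair of BATI4KO libraries was highest, FX_5514 came next and FX_5503 was lowest.

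The troponin subunits, which make the thin filament sensitive to calcium, were ordered alike in WV. Tnnt1, the subunit that anchors troponin to tropomyosin, was at 4.16, 1.05, 8.80, 0.460 and 27.5 CPM in the floxed libraries and at 124, 4.04, 1.27, 118 and 1.54 CPM in the BATI4KO libraries. Tnni1, the inhibitory subunit, was at 1.94, 0.574, 3.88, 0.246 and 20.3 CPM in the floxed and at 99.2, 1.71, 0.337, 87.2 and 0.651 CPM in the BATI4KO libraries. Tnnc1, the calcium-binding subunit shared with the heart, was at 1.21, 0.374, 3.79, 0.215 and 15.1 CPM in the floxed and at 76.4, 2.25, 0.285, 76.4 and 0.549 CPM in the BATI4KO libraries. For all 3 subunits the genotypes overlapped, with KO_5492 and KO_5495 above and KO_5493, KO_5494 and KO_5496 inside the floxed range. The median of the BATI4KO libraries was below the floxed median for Myl3, Tnnt1 and Tnni1 (7.25 against 40.5, 4.04 against 4.16 and 1.71 against 1.94 CPM) and above it for Myl2 and Tnnc1 (2.25 against 1.53 and 2.25 against 1.21 CPM).

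The calcium-handling genes showed the same pair of high libraries in WV over a narrower range. Atp2a2, the SERCA2 pump that returns calcium to the sarcoplasmic reticulum, was at 33.4, 42.6, 67.6, 38.3 and 152 CPM in the floxed and at 404, 57.9, 40.8, 559 and 57.5 CPM in the BATI4KO libraries. Casq2, the calcium-storing calsequestrin of heart and slow muscle, was at 52.4, 13.0, 35.4, 6.78 and 52.9 CPM in the floxed and at 70.0, 12.4, 13.5, 70.1 and 10.8 CPM in the BATI4KO libraries. FX_5413, the middle floxed library for the troponins, was close to the highest floxed library for Casq2.

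Myoz2, a calcineurin-binding Z-disc protein, ran from 1.72 to 45.1 CPM in floxed and from 4.42 to 98.4 CPM in BATI4KO WV, with medians of 10.9 and 12.1 CPM. Mb, the oxygen carrier myoglobin, was at 3140.2, 860.4, 2002, 304 and 2309.7 CPM in the floxed and at 3162, 667, 692, 2799.8 and 496 CPM in the BATI4KO libraries. Mb differed from the other genes in that only KO_5492 lay above the highest floxed library, FX_5413. Tpm3, the slow alpha-tropomyosin gene, was at 25.3, 24.3, 26.3, 14.1 and 62.7 CPM in the floxed and at 223, 16.7, 18.0, 229 and 18.8 CPM in the BATI4KO libraries, and the medians were 25.3 and 18.8 CPM. Reads of Tpm3 can be shared with its annotated pseudogene copies Tpm3-rs2, Tpm3-rs3 and Tpm3-rs7.

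**Figure D1:**
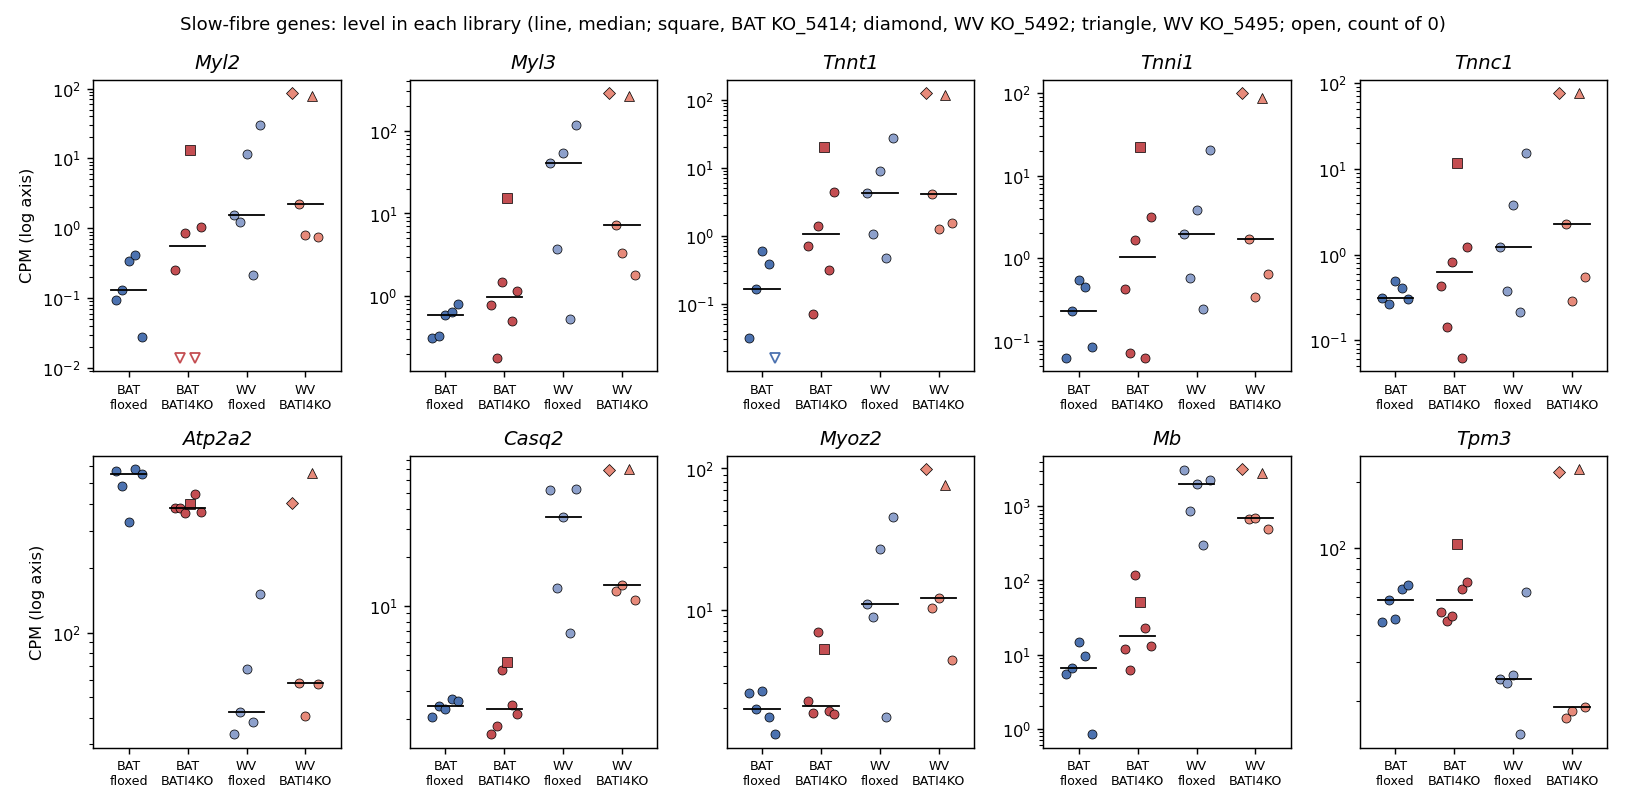
Level of each of the 10 genes in every library, in CPM on a log axis that differs between panels; each point is 1 library, lines are group medians and open triangles are counts of 0. In WV, KO_5492 and KO_5495 stand above the other BATI4KO libraries for every gene, and in BAT, KO_5414 is the highest library for Myl2, Myl3 and the 3 troponins.

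No member passed the test of genotype in WV, where 1 of 14529 tested genes passed (0.00688%; edgeR quasi-likelihood test, Benjamini-Hochberg adjusted p under 0.05 over all tested genes). Of the 10, 9 had a positive log2 difference (BATI4KO minus floxed), with a median of +1.74 against -0.01 over all tested genes. The 2 members with an unadjusted p under 0.05 were Atp2a2 (log2 +1.75, SE 0.74; edgeR adjusted p = 0.53) and Tpm3 (log2 +1.73, SE 0.78; edgeR adjusted p = 0.549), beside 8.91% of all tested genes under that p. In both, 2 of the 5 BATI4KO libraries were above the floxed mean and 3 below it. Tnnc1, Tnni1 and Tnnt1 had log2 differences of +2.93 (SE 1.42), +2.83 (SE 1.45) and +2.58 (SE 1.32), with edgeR adjusted p-values of 0.583, 0.606 and 0.606. Myl2 was at +1.94 (SE 1.36), Myl3 at +1.38 (SE 1.38) and Myoz2 at +1.11 (SE 0.87), with edgeR adjusted p-values of 0.708, 0.805 and 0.741. Casq2 (log2 +0.14, SE 0.66) and Mb (log2 -0.14, SE 0.64) both had an edgeR adjusted p of 0.969.

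These WV differences rest on KO_5492 and KO_5495. Leaving out KO_5495 alone moved the median of the members to +1.13, and KO_5492 alone to +1.22. Without both libraries, an alternative chosen after seeing the data, all 10 members had a negative log2 difference and the median was -1.67. Myl3 was then at -3.39, Tnni1 at -2.57 and Atp2a2 at -0.36, and no member passed (smallest edgeR adjusted p = 0.336). General muscle content was alike in all WV libraries, with a mean log2 CPM of the 12 muscle genes between 11.8 and 12.7. With that score in the fit the median of the members was +1.79. Within the 7 WV libraries with Rmrp under 50 CPM, 2 floxed and 5 BATI4KO, the median was +2.46, also without a member passing. The summed level of 7 heart muscle markers was 3.42 to 9.79 CPM in floxed and 3.81 to 21.1 CPM in BATI4KO WV, with Myl7 at 0 counts in all 10 libraries. Whether the 2 libraries hold more slow fibres or more slow transcript per fibre cannot be told apart in whole tissue, and the same holds for every level given here.

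**Figure D2:**
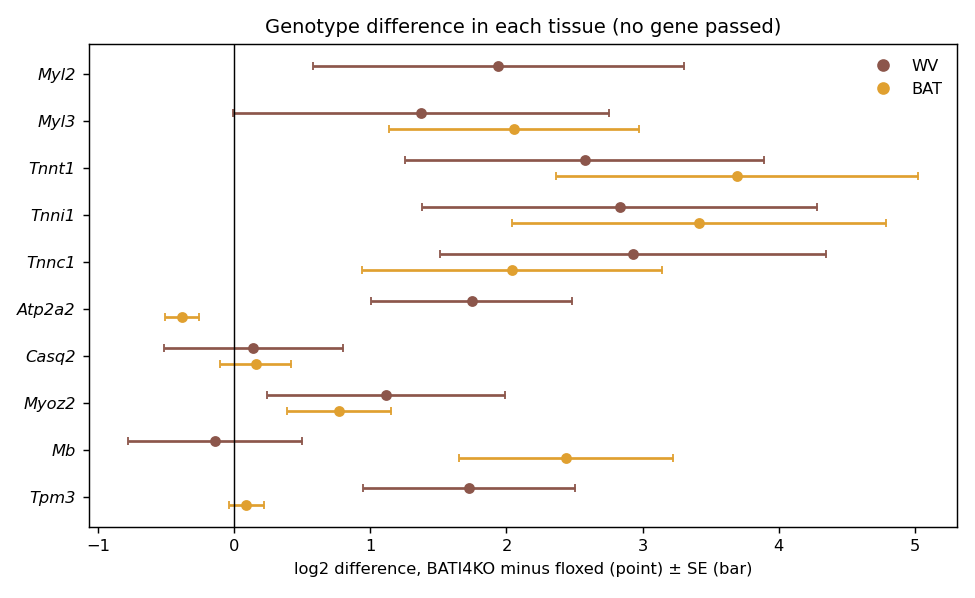
Log2 difference between BATI4KO and floxed libraries for each gene in each tissue, with bars of 1 SE from the edgeR fit (Myl2 in BAT was below the filter on low counts and has no point). In WV the differences run from -0.14 to +2.93 and in BAT from -0.38 to +3.69, and none passed.

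The spread between WV libraries of the same genotype was among the widest of all genes. The SD of log2 CPM around the genotype means was 3.34 for Myl3, 3.19 for Tnni1, 3.14 for Tnnc1, 3.07 for Myl2 and 2.83 for Tnnt1, which were ranks 2 to 6 of the 14529 tested genes, where the median SD was 0.27. Myoz2 had an SD of 1.87, at rank 13, and Tpm3, Atp2a2, Casq2 and Mb had SDs of 1.32 to 1.52, at ranks 35 to 59. The highest WV library exceeded the lowest by 549-fold for Myl3, 404-fold for Tnni1, 399-fold for Myl2, 356-fold for Tnnc1 and 269-fold for Tnnt1, but by 16.7-fold for Atp2a2, 10.4-fold for Mb and 10.3-fold for Casq2. For the light chains and troponins the lowest library was FX_5503, with 7 counts for Myl2 and Tnnc1, 8 for Tnni1, 15 for Tnnt1 and 17 for Myl3. The size of their folds is therefore uncertain. In BAT the SD was 2.24 for Tnni1, 2.13 for Tnnt1 and 1.73 for Tnnc1, at ranks 12, 14 and 31 of 16051, and 1.55 to 1.56 for Myl3 and Mb. Atp2a2 and Tpm3 varied little in BAT, with SDs of 0.24 and 0.37 beside a median of 0.31 over all tested genes.

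**Figure D3:**
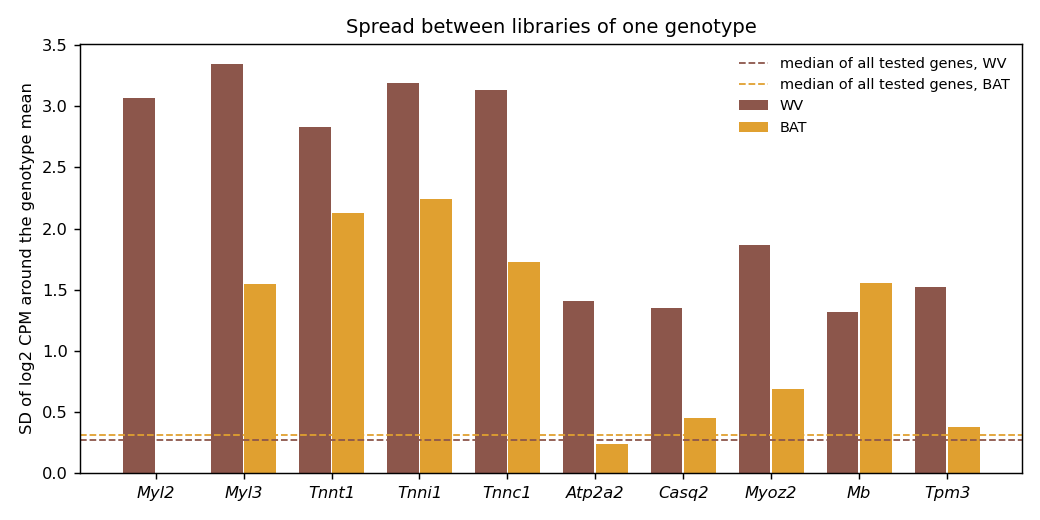
SD of log2 CPM around the genotype mean for each gene in WV and BAT (bars from 0; Myl2 in BAT was not tested and has no bar), with the median over all tested genes of each tissue as a dashed line. The light chains and troponins of WV reach 2.83 to 3.34 where the median gene is at 0.27, and Atp2a2 in BAT, at 0.24, lies under the median there of 0.31.

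The 10 genes went up and down together over the WV libraries. Of the 45 pairs of members, all 45 had a positive Pearson r of log2 CPM, with a median of 0.924 (0.609 to 0.996), and 44 passed a two-sided permutation test at an adjusted p under 0.05 over the 45 pairs (10 libraries, 100000 resamples). Spearman's rho had a median of 0.879, with 43 pairs passing. Pairs of other genes were not correlated in WV or BAT. How large a share of all gene pairs would pass the same test is therefore not known. The closest pair was Tnni1 with Tnnc1 (r = 0.996, permutation p = 1e-05, the smallest these resamples can give; rho = 0.988), and it remained at r = 0.987 without the 2 libraries farthest from the median of Tnni1. The 10 pairs among Myl2, Myl3, Tnnt1, Tnni1 and Tnnc1 had r of 0.924 to 0.996. The loosest pair was Atp2a2 with Mb (r = 0.609, permutation p = 0.0664; rho = 0.442). Because KO_5492 and KO_5495 stand apart, r was also taken over the other 8 WV libraries, where its median was 0.837 (0.344 to 0.987) and 39 pairs passed by the exact permutation test. With genotype means removed, the median was 0.932.

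In BAT the members split. Of the 45 pairs, 37 had a positive r, with a median of 0.636 (-0.579 to 0.979), and 14 passed the permutation test at an adjusted p under 0.05 (11 libraries). The 10 pairs among the light chains and troponins had r of 0.848 to 0.979 and all 10 passed, as with Tnnt1 and Tnni1 (r = 0.960, permutation p = 3e-05; rho = 0.855). Without KO_5414, which stands apart, these 10 pairs had r of 0.681 to 0.952, and 5 of all 45 pairs passed. Atp2a2 had a negative r with 8 of the other 9 members, but none of its pairs passed. The lowest r was -0.58 with Mb (permutation p = 0.0594, adjusted 0.0922, rho = -0.58). With genotype means removed, the r of Atp2a2 ran from -0.34 with Mb to +0.32 with Tpm3. Removing genotype means and title style moved the number of passing BAT pairs to 27, so the count depends on what is taken out of the levels.

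**Figure D4:**
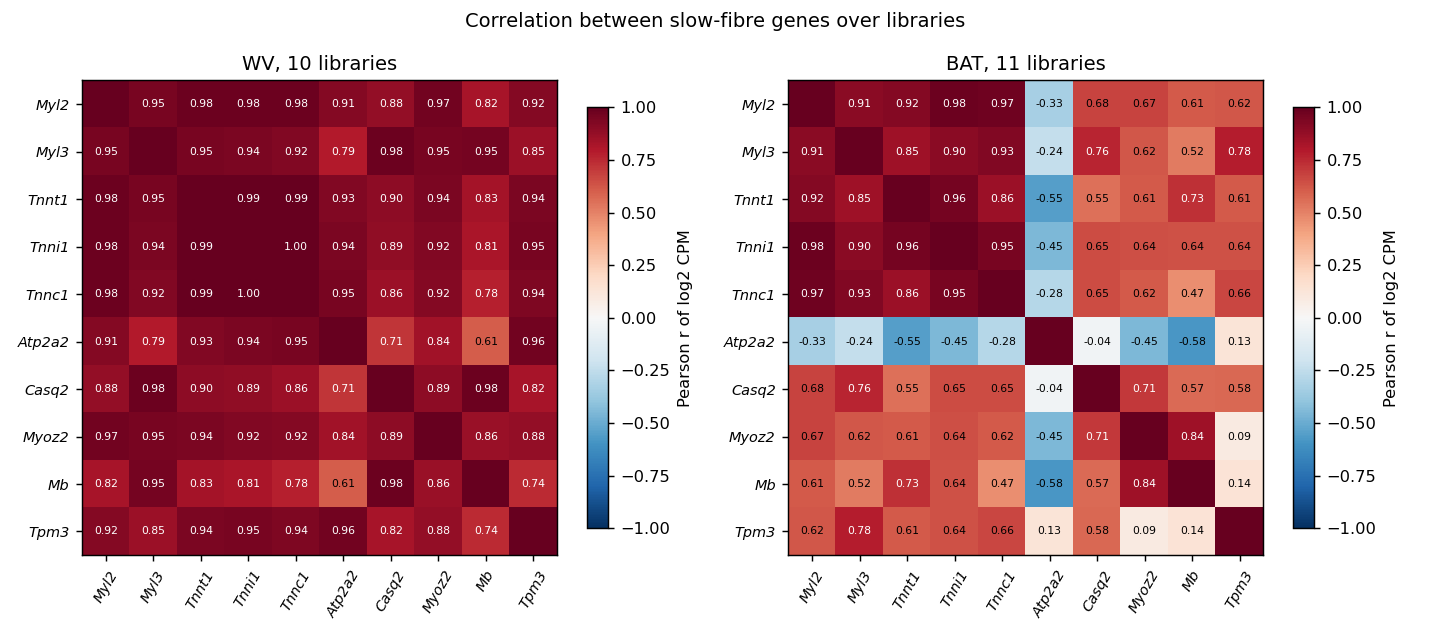
Pearson r of log2 CPM between each pair of the 10 genes over the 10 WV libraries (left) and the 11 BAT libraries (right), on a colour scale from -1 to 1. Every pair is positive in WV, while in BAT the light chains and troponins form a block of r from 0.848 to 0.979. Atp2a2 has negative r with most members in BAT, in pairs that did not pass.

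In brown fat the light chains and troponins were near the limit of detection in all but a few libraries. Tnnt1 was at 0.0314, 0.163, 0.593, 0.375 and 0 CPM in floxed FX_1, FX_2, FX_3, FX_5497 and FX_5503, the last with a count of 0, which allows up to 3 counts. In the 6 BATI4KO libraries it ran from 0.0706 to 20.3 CPM with a median of 1.06 CPM, the highest being KO_5414 with 703 counts. Tnni1 ran from 0.0628 to 0.544 CPM in floxed BAT (median 0.229) and from 0.0617 to 22.4 CPM in BATI4KO BAT (median 1.05), again highest in KO_5414. The next highest library for both was KO_5494, at 4.32 CPM for Tnnt1 and 3.12 CPM for Tnni1, and the genotypes overlapped. For no member in BAT did all BATI4KO libraries lie above or below all floxed libraries, as they did for 0.573% and 0.43% of all tested genes.

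Tnnc1 ran from 0.261 to 0.494 CPM in floxed BAT (median 0.314) and from 0.0617 to 11.6 CPM in BATI4KO BAT (median 0.619). Myl3 ran from 0.314 to 0.804 CPM in floxed BAT (median 0.593) and from 0.177 to 15.4 CPM in BATI4KO BAT (median 0.970). Myl2 had 1 to 12 counts in the floxed libraries, 463 counts in KO_5414 and 0 counts in KO_2 and KO_5492, and it did not pass the filter on low counts. For all 3 genes KO_5414 was the highest of the 11 libraries.

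The library with the most muscle transcript overall was not the one with the most slow-fibre transcript. KO_3 had the highest muscle score of BAT, a mean log2 CPM of 8.67 over the 12 muscle genes, against 6.30 in KO_5414 and 2.67 to 6.22 in the others. Tnnt1 was at 1.40 CPM in KO_3 and 20.3 CPM in KO_5414, and Myl2 was at 0.856 and 13.4 CPM. Mb, in contrast, was at 119 CPM in KO_3 and 51.9 CPM in KO_5414, and Myoz2 at 6.94 and 5.27 CPM. Over the 11 BAT libraries the muscle score had r = 0.953 with Mb (permutation p = 3e-05, adjusted over 10 genes 0.0003; rho = 0.945), and r = 0.902 remained without the 2 libraries farthest from the median score. It had r = 0.77 with Myoz2 (permutation p = 0.00527, adjusted 0.0264; rho = 0.482), which was 0.331 without those 2 libraries and so rests on them. With Tnnt1 it had r = 0.679 (permutation p = 0.0237, adjusted 0.079; rho = 0.864, permutation p = 0.00113, adjusted 0.00565), so that the rank correlation passed and Pearson's r did not; r was 0.78 (exact permutation p = 0.00914) without those 2 libraries. With Atp2a2 it had r = -0.55 (permutation p = 0.0775, adjusted 0.139, rho = -0.436). With Tpm3 it had r = 0.12 (permutation p = 0.711, adjusted 0.711). Without those 2 libraries the r with Tpm3 was 0.745 (exact permutation p = 0.017, not adjusted). In WV the same score had r of 0.06 to 0.29 with the 10 members, and no relation passed.

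Mb was at 5.43, 6.50, 14.8, 9.45 and 0.831 CPM in the floxed BAT libraries and ran from 6.11 to 119 CPM in BATI4KO BAT, with a median of 18.0 CPM. Myoz2 ran from 1.30 to 2.67 CPM in floxed BAT (median 1.96) and from 1.81 to 6.94 CPM in BATI4KO BAT (median 2.08). Casq2 ran from 2.07 to 2.66 CPM in floxed and from 1.61 to 4.48 CPM in BATI4KO BAT, with medians of 2.42 and 2.30 CPM. The genotypes overlapped for all 3 genes, with KO_3 and KO_5414 the 2 highest libraries for each.

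Atp2a2 and Tpm3 were abundant in every BAT library. Atp2a2 was at 569, 484, 331, 581 and 553 CPM in the floxed libraries and ran from 362 to 447 CPM in BATI4KO BAT, with a median of 383 CPM. All 6 BATI4KO libraries lay below the floxed mean of 504 CPM and below 4 of the 5 floxed libraries, FX_3 being lower than any. Tpm3 ran from 46.0 to 67.9 CPM in floxed BAT (median 57.9) and from 46.2 to 105 CPM in BATI4KO BAT (median 57.9), with KO_5414 highest. In the tables as scaled, which were normalized separately for each tissue, Atp2a2 averaged 442 ± 90.8 CPM in BAT (SD, n = 11) and 145 ± 184 CPM in WV (SD, n = 10).

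No member passed in BAT either, where 7 of 16051 tested genes passed (0.0436%; edgeR, adjusted p under 0.05), Irf4 among them. Of the 9 members tested, 8 had a positive log2 difference and the median was +2.04, against -0.01 over all tested genes. Unadjusted p-values under 0.05 were had by 5 members, beside 14.7% of all tested genes. Of the members, Mb (log2 +2.44, SE 0.78; 5 of 6 BATI4KO libraries above the floxed mean) and Atp2a2 (log2 -0.38, SE 0.13; 6 of 6 below it) had the lowest edgeR adjusted p-values, 0.202 and 0.207. Leaving out KO_3 alone moved Mb to +1.28 (edgeR adjusted p = 0.508). Tnnt1 was at +3.69 (SE 1.33), Tnni1 at +3.41 (SE 1.37) and Myl3 at +2.05 (SE 0.92), with edgeR adjusted p-values of 0.234, 0.277 and 0.324. Tnnc1 (log2 +2.04, SE 1.10), Myoz2 (log2 +0.77, SE 0.38), Casq2 (log2 +0.16, SE 0.26) and Tpm3 (log2 +0.09, SE 0.13) had edgeR adjusted p-values of 0.412, 0.375, 0.811 and 0.778. DESeq2 called no member in either tissue, its smallest adjusted p-values being 0.0735 in BAT and 0.464 in WV.

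Muscle transcript moved with these BAT differences. All 9 fast counterparts of the members had a positive log2 difference in BAT, from +1.06 for Myl1 to +2.69 for Tnnc2. So had all 12 general muscle genes, with medians of +2.54 and +2.56 and none passing. Over all tested genes in BAT, 48.8% had a positive log2 difference. With the muscle score in the fit, the median of the members was +0.05 and the smallest edgeR adjusted p was 0.791. Without KO_5414 the median was +0.56, without KO_3 alone +1.28, and without both, chosen after seeing the data, it came to +0.21. The median was +0.60 over short-numbered libraries alone and +2.77 over long-tagged ones alone, with no member passing in either. Tnnt1 and Tnni1 had a positive log2 difference in each of these fits, the lowest values over all BAT alternatives being +1.47 and +1.14.

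The slow form's part of each slow and fast pair was read from levels per kilobase of gene model, so that it does not depend on library scaling. Over 9 pairs (Mb has no fast counterpart), the median slow share of a WV library was 0.00578% in FX_5503, 0.0637% in FX_5413, 0.0646% in FX_5415, 0.324% in FX_5497 and 0.839% in FX_5514. In the BATI4KO libraries of WV it was 2.71% in KO_5492, 2.48% in KO_5495, and 0.0995%, 0.0494% and 0.0221% in KO_5493, KO_5494 and KO_5496. Even the highest WV libraries were thus mostly fast, the largest single share being 5.09% for Myl3 against Myl1 in a BATI4KO library. Tnnt1 took 1.85% and 1.87% of the Tnnt1 and Tnnt3 sum in KO_5492 and KO_5495, 0.405% in FX_5514 and at most 0.106% in the other 7.

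In BAT the median slow share of a library was 0.574% to 23.5%, against 0.00578% to 2.71% in WV, and the shares of different genes overlapped. The BAT median includes Atp2a2 and Tpm3, which are also used outside muscle. Set against WV, it therefore cannot tell how slow the muscle fibres within BAT are. The 23.5% was that of FX_1, where it was the Tnnc1 share and rested on 10 Tnnc1 and 32 Tnnc2 counts. Atp2a2 took 79.3 ± 13.2% of the Atp2a2 and Atp2a1 sum in floxed BAT (SD, n = 5) and 48.7 ± 21.6% in BATI4KO BAT (SD, n = 6), with KO_3 lowest at 9.46%. Tpm3 took 65.6 ± 1.93% of its sum with Tpm1 in floxed BAT (SD, n = 5) and 53.9 ± 14.4% in BATI4KO BAT (SD, n = 6), with KO_3 lowest at 26.8%. KO_3 is the library with the highest muscle score, and its Atp2a2 level, 362 CPM, was close to the 367 to 447 CPM of the other BATI4KO libraries. Tnnt1 took 23.4% of its sum with Tnnt3 in KO_5414, 0.667% in KO_3, and 0 to 8.15% in the other 9 libraries. Myl2 took 35.5% of its sum with Mylpf in KO_5414 and 0 to 4.93% in the others. Casq2 took 28.6 ± 14.0% of its sum with Casq1 in floxed (SD, n = 5) and 9.43 ± 6.32% in BATI4KO BAT (SD, n = 6), and Myoz2 took 22.7 ± 11.3% and 10.2 ± 6.04% of its sum with Myoz1 (SD, same n). The median Casq2 level was 2.42 CPM in floxed and 2.30 CPM in BATI4KO BAT, and that of Casq1 5.88 and 22.9 CPM. For Myoz2 the medians were 1.96 and 2.08 CPM, and for Myoz1 3.30 and 10.9 CPM. Atp2a1 and Tpm1 also had higher medians in BATI4KO than in floxed BAT, 220 against 75.5 CPM and 86.35 against 44.7 CPM. Tnnc1 took 12.1 ± 7.48% of its sum with Tnnc2 in floxed and 6.44 ± 7.46% in BATI4KO BAT. Its median level was 0.314 CPM in floxed and 0.619 CPM in BATI4KO BAT, and that of Tnnc2 2.19 and 33.3 CPM. The highest Tnnc1 share was that of FX_1 at 23.5%, from 10 and 32 counts, and is uncertain. KO_5414 was at 20.9%, from 401 and 1497 counts. In KO_5414 the share of Myl2 exceeded those of Casq2, 12.8%, and Myoz2, 14.7%. The median share over the 5 light chain and troponin pairs was 20.9% in KO_5414, 0.701% in KO_3 and 0.156% to 4.83% in the others.

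**Figure D5:**
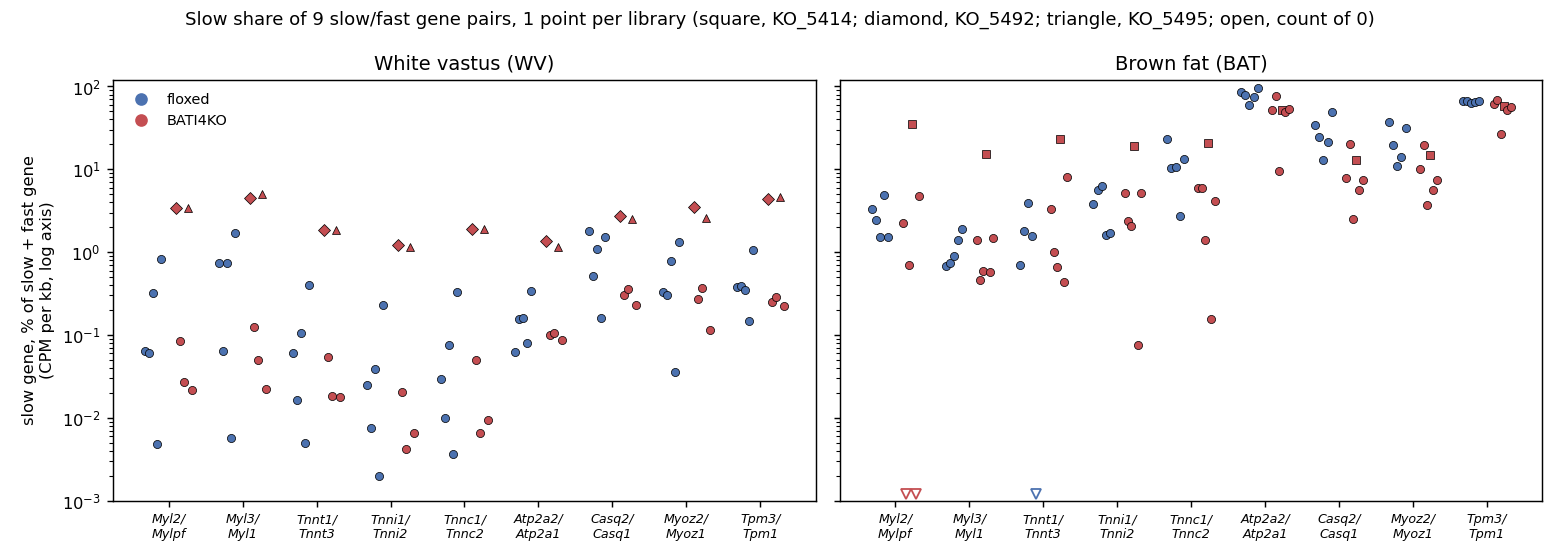
Slow gene as a percentage of the slow and fast gene together (CPM per kilobase, log axis) for 9 pairs in WV (left) and BAT (right), 1 point per library, floxed in blue and BATI4KO in red, open triangles for a count of 0. WV shares stay at or under 5.09%, with KO_5492 and KO_5495 highest, while in BAT Atp2a2 and Tpm3 take over 50% of their pairs in most libraries and KO_5414 is highest for the light chains, Tnnt1 and Tnni1.

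Per kilobase, Mb was the most abundant member in WV at 1313 ± 924 CPM per kb (SD, n = 10), followed by Myl3 at 87.1 ± 123 CPM per kb. Myl2, Tnnt1, Tpm3, Atp2a2, Tnnc1, Tnni1, Casq2 and Myoz2 followed with means from 33.5 down to 9.30 CPM per kb, and neighbours in that order differed by less than their SDs. In BAT the order per kilobase was led by Atp2a2 at 77.2 ± 15.9, Tpm3 at 23.7 ± 6.70 and Mb at 19.0 ± 27.4 CPM per kb (SD, n = 11). The other 7 members had means of 0.867 to 2.75 CPM per kb in BAT, and their order was within their spread.

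The genotype difference itself was compared between tissues in a fit over all 21 libraries, which took those with a tag shared by the tissues as unrelated. With shared title numbers as a block, no member passed either (limma voom, smallest adjusted p = 0.481). No member passed, where 3 of 16632 tested genes passed (0.018%; edgeR, adjusted p under 0.05), and 2 members had an unadjusted p under 0.05, beside 10.6% of all tested genes. Atp2a2 had a log2 difference of differences (WV minus BAT) of +2.15 (edgeR adjusted p = 0.335), positive in WV and negative in BAT. This contrast rests on KO_5492 and KO_5495: without them Atp2a2 was at -0.36 in WV, and without them and KO_5414 of BAT its difference of differences was +0.028, while leaving out single libraries gave +1.46 to +2.72. Mb had -2.57 (edgeR adjusted p = 0.408) and, without KO_3 of BAT, -1.40, and Tpm3 had +1.66 (edgeR adjusted p = 0.488). The other 7 members had edgeR adjusted p-values of at least 0.877.

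Other genes listed for slow fibres followed the members only in part, and whether each is particular to slow fibres was not tested. Myh7, the slow myosin heavy chain, was at 10.3, 2.24, 32.2, 0.675 and 182 CPM in floxed WV and at 586, 19.9, 2.69, 1007 and 6.69 CPM in BATI4KO WV, high and low in the same libraries as the troponins. Its log2 difference was +2.84 in WV (SE 1.62; edgeR adjusted p = 0.655) and +2.71 in BAT (SE 1.06; edgeR adjusted p = 0.266). Of the 14 listed genes outside the members, Myh7 included, 13 were tested in WV, none passed, and the median log2 difference was +0.07. Smallest in p after Myh7 were Pln, the SERCA inhibitor phospholamban (log2 -0.37), and Myom3, an M-band protein (log2 +0.87). In BAT, 12 of the 14 were tested and all 12 had a positive log2 difference, against 48.8% of all tested genes. None passed, and their median was +2.18. The general muscle genes had a median of +2.56 there. The smallest p-values there were those of Ckmt2, the mitochondrial creatine kinase of muscle (log2 +2.98), Smyd1, a methyltransferase of sarcomere assembly (log2 +1.81), and Csrp3, a Z-disc LIM protein (log2 +3.35), with edgeR adjusted p-values of 0.182 to 0.191.

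Of 27 regulators of fibre type, 27 were tested in WV and 26 in BAT, and none passed in either tissue. In WV, 24 of the 27 had a positive log2 difference, against 48.5% of all tested genes. The median was +0.26, against -0.01 over all tested genes. An unadjusted edgeR p under 0.05 was had by 5 of the 27, beside 8.91% of all tested genes. Prox1, a homeobox factor needed for slow fibres, averaged 1.19 ± 0.42 CPM over floxed and 2.17 ± 0.83 CPM over BATI4KO WV (SD, n = 5 each; log2 +0.86, SE 0.33; edgeR adjusted p = 0.489), and Cited2, a transcriptional coregulator, had a log2 difference of +0.58 (SE 0.22; edgeR adjusted p = 0.494). In BAT the median over 26 regulators was +0.09. The smallest p-values were those of Esrrb (log2 -1.22), Mef2c (log2 +0.66) and Tead1 (log2 -1.35), with edgeR adjusted p-values of 0.197, 0.211 and 0.24.

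The genes most like the members were ranked by Pearson r with the mean standardized log2 CPM of the 10, as a description. In WV they were Plbd1 (r = 0.983), Rcan2, a calcineurin regulator (0.982), Hspb7, a small heat shock protein of heart and muscle (0.980), Myh7 (0.974) and Zdhhc23 (0.973), over 10 libraries that share the 2 high ones. Hspb7 ran from 17.8 to 236 CPM and Rcan2 from 35.7 to 124 CPM. In BAT they were Abhd8 (r = 0.932), Myh7 (0.888), Cmtm7 (0.873), Crlf3 (0.872) and Acap1 (0.868), over 11 libraries.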

How the data were processed

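RNA of whole BAT and WV was depleted of ribosomal RNA, primed with random hexamers and tagmented into libraries, per the labels' protocols. The authors deposited raw read counts per gene model, 1 table per tissue, giving symbol and model length per the file headers. The submitters' processing notes name build mm9, edgeR without a version, TopHat2 2.0.14, featureCounts 1.4.6, SAMtools 0.1.19, Picard 2.2.4 and bcl2fastq 2.17.1.14. Strand handling is not given in the sources used here, so reads of genes overlapping on the opposite strand (Ccdc63 with Myl2, Pth1r with Myl3, Nisch with Tnnc1, Apol6 with Mb, by GENCODE M21 names) cannot be told apart.

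Groups came from the labels. Low counts were removed with edgeR's filterByExpr, libraries scaled by TMM and genes tested with the edgeR 4.0.16 quasi-likelihood F test (R 4.3.3), with title style as covariate in BAT and none in WV, Benjamini-Hochberg adjusted over all tested genes at 0.05. CPM are counts over TMM-scaled library sizes; log2 levels used a prior count of 2. SEs are the log2 difference over the root of F. The SD of spread was taken around genotype means. Correlations used 100000 permutations, or all of them under 10 libraries. Replicate libraries differed by a chi-square per gene of at least 30.4, so all were kept. The scripts were tested on simulated data.

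The members, lists and rules were chosen with earlier results of these data known. Named were the members, Irf4, Myh7, their fast counterparts, the 5 genes most like them per tissue, and up to 3 genes per list by smallest p; the Myl1 and Tnnc2 extremes were picked after values were seen. A further gene that the rule names is not reported here. Alternatives were other scalings, filters, DESeq2 1.42.0, limma 3.58.1 voom, covariates, title styles and each library left out. Counting sums reads, not molecules, and coordinates are those of the promoter table only.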

Additional observations from a re-analysis of the deposited data

Results flagged for a closer look

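In BATI4KO BAT, KO_5414 lay far above the other 5 libraries for 5 members: its distance to the next library was more than 0.625 of the whole range of the group. It held Myl2 at 13.4 CPM (next 1.04), Myl3 at 15.4 CPM (next 1.49), Tnnc1 at 11.6 CPM (next 1.23), Tnni1 at 22.4 CPM (next 3.12) and Tnnt1 at 20.3 CPM (next 4.32).

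In floxed WV, FX_5514 lay far above the other 4 libraries for 4 members, by more than 0.71 of the range. It held Atp2a2 at 152 CPM (next 67.6), Tnnc1 at 15.1 CPM (next 3.79), Tnni1 at 20.3 CPM (next 3.88) and Tpm3 at 62.7 CPM (next 26.3). These are 9 of 40 combinations of gene and group. The distances were taken on CPM rather than log2 CPM. Limits of this kind mark about 1 in 20 groups by chance only where values are normally distributed. These CPM are skewed toward high values, and how often chance would mark them was not tested. The members are correlated, so the 9 are not independent. KO_5492 and KO_5495 of WV, being a pair, are not marked by a distance to the nearest library.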

How the results depend on the processing

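No member passed in any of the 25 BAT, 22 WV and 31 tissue-difference alternatives. The smallest adjusted p of a member ranged over them from 0.0672 to 0.819, from 0.336 to 0.977 and from 0.228 to 0.568. Over all genes, DESeq2 called 374 in BAT, 97 in WV and 54 in the tissue difference, against 7, 1 and 3 by edgeR. In BAT, the sign of Casq2 and Tpm3 depended on single libraries: leaving out each in turn gave -0.072 to +0.28 for Casq2 and -0.020 to +0.17 for Tpm3. With the muscle score, Casq2 was at -0.38, Myoz2 at -0.17 and Mb at -0.032. Without KO_3 and KO_5414, Casq2 was at -0.31 and Tpm3 at -0.022. Tpm3 was at -0.049 within short numbers. With the replicate block of numbers 1 to 3, Tpm3 was at -0.043, the median was +0.37 and 0 members passed. Deviations from the group means had correlations of 0.134, -0.121 and 0.0672 between same-numbered libraries. Between differently numbered ones they were -0.234 to 0.17. With 3 libraries per genotype, these values cannot show whether the numbers share more than a label. In WV, leaving out each library gave -0.57 to +0.20 for Mb and -0.26 to +0.41 for Casq2. Without KO_5492 and KO_5495, added after seeing the data like all fits without named libraries, Myl2 was at -2.78, Myl3 at -3.39, Tnnt1 at -1.87, Tnni1 at -2.57, Tnnc1 at -1.995, Atp2a2 at -0.36, Casq2 at -1.39, Myoz2 at -1.05 and Tpm3 at -0.77. In the tissue difference, leaving out each library gave -0.42 to +0.26 for Casq2, -2.02 to +0.88 for Myl2, -1.51 to +0.82 for Myl3, -1.49 to +0.91 for Tnni1 and -0.27 to +1.002 for Myoz2. Without KO_5414, KO_5492 and KO_5495, Tnnc1 was at -2.53, Myoz2 at -1.54, Tpm3 at -0.74 and Atp2a2 at +0.028. Voom gave Myl2 +0.17, its fit with the replicate block of title numbers shared by the tissues gave Myl2 +0.39, Casq2 +0.11 and 0 members passing, and no filter gave Casq2 0.0044. The number of correlated BAT pairs, 14, was 5 without the 2 libraries farthest from the median, 5 without KO_5414 and 27 with genotype and title style removed. Apart from the libraries left out, the cause of these shifts was not tested. Depth limits Myl2 and the troponins in BAT, where some libraries hold 0 to 3 counts.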
